A study of Mus musculus with 32 samples.

Results

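The replication histone genes of mouse bone marrow progenitors were followed here over 32 RNA-seq libraries. Members were the protein-coding genes of the deposited count table whose symbol begins with Hist1h, Hist2h, Hist3h or Hist4h, or with H1f, H2ac, H2bc, H3c or H4c and a digit. The rule took 68 of the table's 55487 genes, of which 21936 were protein coding. These were 10 H1 genes, 17 H2A genes, 17 H2B genes, 12 H3 genes and 12 H4 genes. On GRCm38, 54 of them lie in the cluster on chromosome 13 (chr13:21715763-23934851) and 10 in the cluster on chromosome 3 (chr3:96219865-96270132). The other 4 are linker histone genes outside the clusters: H1f0 and H1f7 on chromosome 15, and H1f8 and H1f10 on chromosome 6. They entered by their symbols alone, and the label of clustered replication genes does not cover them. The rule used names and no measured value.

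The study set Cxadr-ko mice (Mx1-Cre positive, Cxadr fl/fl) against control mice (Mx1-Cre negative, Cxadr fl/fl), with 4 mice per genotype. All 8 mice thus carried the floxed Cxadr alleles. Mx1-Cre is a transgene whose promoter is switched on by interferon, so deletion is not limited to blood cells, and the labels used here give neither an induction scheme nor ages. LSK cells (the stem and multipotent progenitor gate), CMP, GMP and MEP cells (common myeloid, granulocyte-monocyte and megakaryocyte-erythroid progenitor gates) were sorted from the bone marrow of each mouse, which gave 8 libraries per population.

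Replication histones package newly made DNA, and cells make most of their mRNA during S phase. H2A, H2B, H3 and H4 form the core around which DNA winds, and H1 binds the linker DNA between cores. Their mRNAs usually have no intron and end in a conserved stem-loop bound by Slbp in place of a poly(A) tail. H1f0 is a replacement linker histone, known for its high level in cells that have stopped dividing, and its mRNA carries a poly(A) tail. The library kit named in the labels primes cDNA from poly(A) tails, so the amount of a stem-loop mRNA and the share of it that carries a tail cannot be told apart in these counts. In bulk samples, fewer cells of a kind and less RNA per cell cannot be told apart either.

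The stem-loop was searched for as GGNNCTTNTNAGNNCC, where N is any base, on the sense strand of the annotated transcripts of GENCODE M21. It was found in 43 of the 68 members: 4 H1, 10 H2A, 9 H2B, 9 H3 and 11 H4 genes. Of 21951 protein-coding genes in that annotation, 136 (0.620%) held it. The motif came in 8 forms, of which 1 was carried by 24 members. The sites of a few members whose values return below are shown in GRCm38 transcript sense, with 5 bases on either side where the transcript has them and the stem-loop in capitals.
Hist1h2ap: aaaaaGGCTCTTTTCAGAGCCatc
H2bc8: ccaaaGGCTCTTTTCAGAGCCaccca
H2bc12: ccaaaGGCTCTTTTAAGAGCCactaa
H3c2: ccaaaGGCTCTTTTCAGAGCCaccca
H4c8: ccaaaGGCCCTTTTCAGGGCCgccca
H4c14: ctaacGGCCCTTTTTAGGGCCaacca
No match was found in the annotated transcripts of H1f0, H1f5, H2bc4, Hist1h2an, H2ac15 or H2bc15, which says only that these letters are not in those models.

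Promoters were read from the RefSeq table of GRCm38.p6, as 250 bases before to 50 bases after its transcript start, and 55 members had one there. Both strands were searched for 4 motifs known from histone promoters, none of which contains another. The octamer ATTTGCAT was found in 12 of the 55, being 6 of 14 H2A and 6 of 12 H2B promoters, and in 1.735% of all 32851 promoters. CCAAT was found in 46 of the 55 and in 37.41% of all promoters. TATAAA was found in 30 of the 55 and in 13.62% of all. AAACACA, the H1 box, was found in 9 of the 55, of which 5 were among the 10 H1 promoters, and in 7.184% of all. The promoters of H2bc14 and H1f5, which were lower in LSK cells, are set beside that of H1f0, which was higher there. Capitals mark the motifs.
H2bc14, chr13:21721794-21722093, plus strand: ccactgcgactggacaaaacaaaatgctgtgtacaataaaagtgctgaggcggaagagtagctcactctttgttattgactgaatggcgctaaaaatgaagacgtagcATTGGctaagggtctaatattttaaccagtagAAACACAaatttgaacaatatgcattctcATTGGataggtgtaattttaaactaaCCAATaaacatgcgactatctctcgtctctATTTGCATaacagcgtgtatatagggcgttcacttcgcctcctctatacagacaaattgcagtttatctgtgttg
H1f5, chr13:21780576-21780875, minus strand: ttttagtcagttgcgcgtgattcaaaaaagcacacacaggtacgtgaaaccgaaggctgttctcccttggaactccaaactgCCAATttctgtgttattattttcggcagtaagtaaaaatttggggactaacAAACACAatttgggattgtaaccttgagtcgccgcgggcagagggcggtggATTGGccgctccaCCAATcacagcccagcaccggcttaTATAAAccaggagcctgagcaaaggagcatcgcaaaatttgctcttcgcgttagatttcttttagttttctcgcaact
H1f0, chr15:79027962-79028261, plus strand: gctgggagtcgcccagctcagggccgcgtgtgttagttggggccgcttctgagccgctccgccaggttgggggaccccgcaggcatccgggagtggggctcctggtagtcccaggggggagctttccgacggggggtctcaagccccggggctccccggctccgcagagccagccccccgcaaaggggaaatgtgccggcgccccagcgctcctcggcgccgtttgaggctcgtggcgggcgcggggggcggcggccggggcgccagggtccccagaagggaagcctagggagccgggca
The H2bc14 stretch held 1 octamer, 3 CCAAT boxes and 1 H1 box. The H1f5 stretch held 3 CCAAT boxes, 1 TATAAA and 1 H1 box. The H1f0 stretch held none of the 4 motifs, and its RefSeq start lies 238 bases from the gene start in the count table. It ends upstream of that gene start, chr15:79028450, so the sequence next to it was not searched. For H2bc14 and H1f5 the distance between the 2 starts is 0.

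Whole reads recovered from the table summed to 8313300 to 13641248 per library. Members took 0.0974% to 0.135% of them in LSK libraries, 0.106% to 0.191% in CMP cells, 0.138% to 0.238% in GMP cells and 0.133% to 0.183% in MEP cells. The labels could not be checked by Cxadr, the deleted gene, since its level did not set the genotypes apart. Why Cxadr did not separate them was not tested. In LSK its 4 Cxadr-ko libraries had 12.3 to 54.5 normalized counts and its 4 control libraries 18.7 to 50.5. In CMP it had 14.2 to 39.5 in Cxadr-ko and 17.2 to 30.7 in control cells, and in GMP 12.4 to 20.9 in Cxadr-ko and up to 38.4 in control cells. In MEP it had 0 to 15.5 in Cxadr-ko and 6.67 to 27.7 in control cells. The mean was lower in Cxadr-ko than in control cells in GMP and MEP and higher in LSK and CMP, and the genotypes overlapped in all 4 gates. It was called in none of the comparisons in which it was tested. The 12 stem and multipotent markers summed to 13342 to 18297 normalized counts in LSK libraries and to 2098 to 3335 in GMP libraries, and the 10 granulocyte-monocyte markers to 13345 to 23322 and 237470 to 380498. Klf1, an erythroid transcription factor, had 57.1 to 221 normalized counts in GMP libraries and 47.6 to 207 in MEP libraries. The sum of 13 erythroid markers, Klf1 among them, was nevertheless higher in every MEP library than in any GMP library. MEP sums ran from 4159 to 5752 and GMP sums from 1590 to 2353. CMP sums, from 3398 to 4518, overlapped with those of MEP, and LSK sums were the highest, from 8993 to 13457. Mpo, a granule enzyme of myeloid cells, stood at 39048 to 60741 in MEP. Only 69 genes were called between CMP and MEP, so the MEP libraries are named by their gate here. Mature neutrophil markers, 9 genes, spread widely between libraries, from 281 to 3154 in LSK cells, 1455 to 110098 in CMP cells, 1639 to 58061 in GMP cells and 632 to 114462 in MEP cells. Plasma cell markers, 7 genes, ranged from 139 to 74501 in LSK cells, 51.5 to 3299 in CMP cells, 59.3 to 11971 in GMP cells and 52.8 to 528 in MEP cells. The part of these cells in the results below was not tested.

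Members were tested where a value of at least 10 normalized counts was reached in at least 4 of the libraries fitted. Over all 32 libraries 53 of the 68 passed. Of the 15 that did not, 9 had a read, with mean levels of at most 4.65 normalized counts. H1f7 and the chromosome 3 genes H2ac18, H2ac19, H3c13, H3c14 and H2bc18 were at 0 in all 32. These 5 chromosome 3 genes lie where Gm20632, Gm20633, Gm20634 and Gm20628 overlap them in the table. Those non-coding genes averaged 26.7, 16.2, 8.79 and 17.6 normalized counts. The treatment of reads over overlapping genes is not stated in the labels used here. H1f6, H1f7, H2ac1 and H2bc1, known as testis histones, and H1f8, known from oocytes, were all among the 15.

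H2A transcripts made up most of what was measured. The 17 H2A genes held 68.5% to 82.5% of the members' normalized counts in a library, with a median of 75.3%. H2B genes held a median of 9.24%, H1 genes 9.06%, H4 genes 3.51% and H3 genes 2.01%. These are shares of reads, which longer transcripts raise. Per kilobase of exon, Hist1h2ap (chr13:21833026-21833507, minus strand) averaged 7418 normalized counts and Hist1h2ao (chr13:21810465-21810944, plus strand) 6390. H2ac15 followed with 4819, H2ac4 with 3476 and Hist1h2an with 1403. H1f5 (chr13:21779883-21780625, minus strand) stood at 554 per kilobase, H2bc8 at 374, H1f0 at 297, H4c8 at 211, H4c4 at 143 and H3c15 at 76.7. The 5 H2A genes Hist1h2ap, Hist1h2ao, H2ac15, H2ac4 and H2ac6 together took 60.5% to 78.4% of the members' counts.

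Copies of a histone class are so alike that reads may be split between them. Of the 50-base words in the annotated transcripts of an H2A member, a median of 78.9% were also found in other genes, against 62.0% for H3, 49.7% for H2B, 39.9% for H4 and 0 for H1. Hist1h2ao and Hist1h2ap shared over 93% of theirs with other genes, at 93.5% and 93.1%. Values of single H2A, H2B, H3 and H4 genes are therefore uncertain.

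The comparison between gates asked where along the progenitors histone transcripts are lowest. LSK cells had the lowest totals. Summed over the 68 members, normalized counts had a lowest, median and highest value of 10667, 12166 and 14334 in the 8 LSK libraries, 11077, 17150 and 19732 in CMP cells, 15044, 19812 and 24487 in GMP cells, and 13644, 16673 and 18435 in MEP cells. Every GMP library lay above every LSK library, while LSK overlapped with CMP and MEP. Within a mouse the order was steadier: the LSK total was below the CMP, the GMP and the MEP total of the same animal in 8 of 8 mice for each. The median within-mouse ratio was 0.736 for LSK to CMP, 0.642 for LSK to GMP and 0.735 for LSK to MEP. The CMP total was below the GMP total in 8 of 8 mice, with a median ratio of 0.819, and below the MEP total in 4 of 8, with a median ratio of 1.02. H1 departed from this order, since its LSK total was below its GMP total in 3 of 8 mice only, whereas H2A, H2B, H3 and H4 were each below in 8 of 8. That H1 total holds H1f0, which lies outside the clusters. The sum of the clustered H1 genes alone was lower in LSK than in CMP, GMP and MEP in 8 of 8 mice each, with median ratios of 0.696, 0.551 and 0.648. Library totals are relative to each library's size factor and say nothing of RNA per cell.

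**Figure D1:**
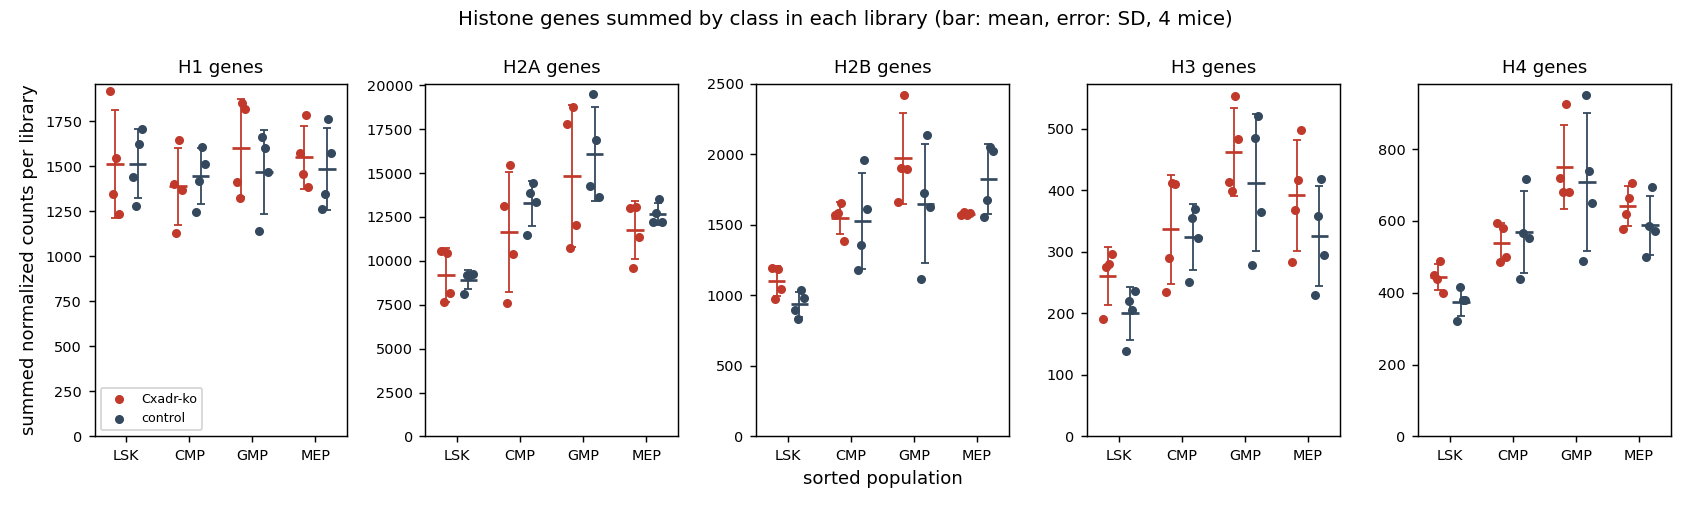
Summed normalized counts of the H1, H2A, H2B, H3 and H4 genes (vertical axes, linear and starting at 0) in each of the 32 libraries, by sorted population, with Cxadr-ko mice left of control mice; bars and error bars are the mean and SD of 4 mice. Mean H2A sums lie lowest in LSK cells and highest in GMP cells, H1 sums, which hold H1f0, do not follow that order, and the genotypes overlap.

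Against GMP, 47 of 53 tested members were lower in LSK cells and 1 was higher, with a median log2 difference (LSK minus GMP) of -0.85. Of all 18475 genes tested, 49.5% were called in this pair, 22.1% as lower in LSK, and their median was 0.07. The test was limma on log2(normalized count + 1) with the mouse as a block, and calls are at a Benjamini-Hochberg adjusted p under 0.05 over all genes. Since 11 of the 53 reached 10 counts in fewer than 4 LSK libraries, and so passed the filter through the other populations, the count was also taken over the 29 members with a mean of at least 50. Of these 27 were lower and 1 was higher. The 5 members that were not called were H4c1, H4c14, H2ac7, H1f10 and H2bc21. In the chromosome 13 cluster 45 of 47 were called lower, and in the chromosome 3 cluster 2 of 4.

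Against CMP, 30 of 53 members were lower in LSK and 1 was higher, with a median log2 difference of -0.51; 31.3% of all genes were called, 14.9% as lower, with a median of 0.03. Against MEP, 41 were lower and 1 was higher, with a median of -0.64; 36.4% of all genes were called, 20.3% as higher and 16.2% as lower, with a median of 0.06. These 3 pairs share the LSK libraries. In the 4 Cxadr-ko mice alone 9 members were called against CMP, 30 against GMP and 13 against MEP, and in the 4 control mice alone 25, 41 and 34. Fewer genes of any kind were called in the Cxadr-ko mice as well: 14.3%, 31.7% and 16.9% of all genes tested there, against 21.9%, 41.9% and 26.8% in the control mice. No member called in any of the 3 pairs other than H1f0 was higher in LSK.

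**Figure D2:**
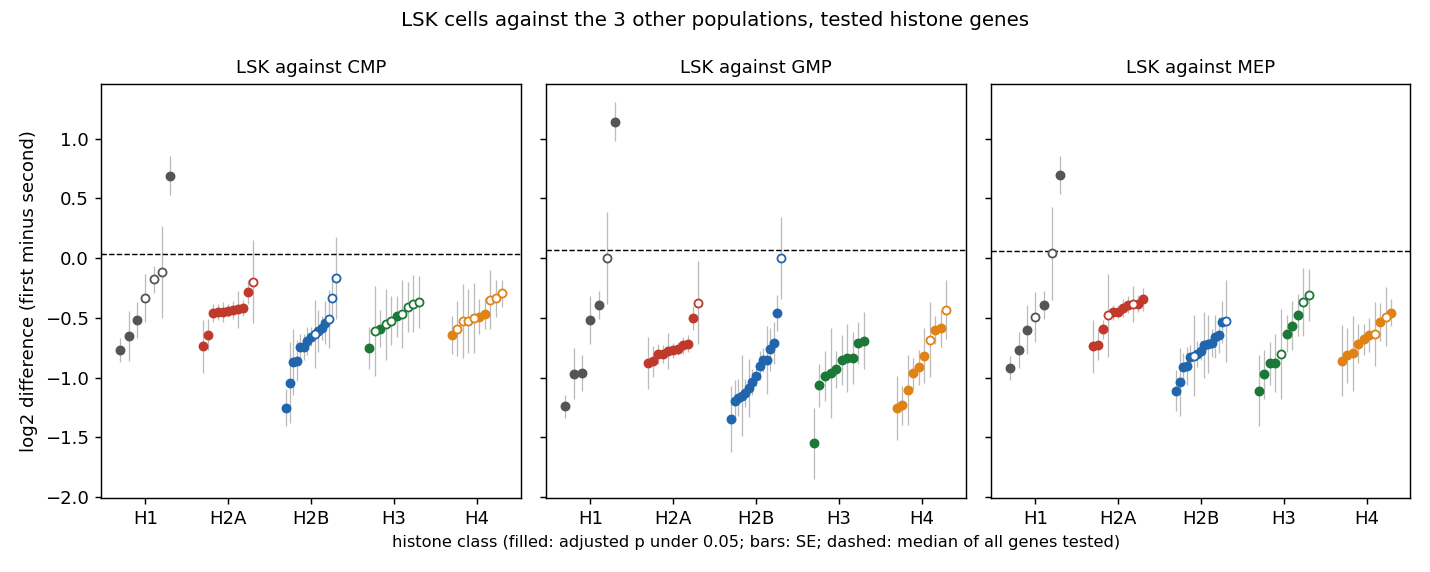
Log2 difference, LSK minus the other population (vertical axis), of each tested histone gene by class, with its standard error; filled points have an adjusted p under 0.05 and the dashed line is the median of all genes tested. All but H1f0 and, in the pairs with GMP and MEP, H1f10 lie below 0.

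Among linker histones, H1f5 encodes a main replication-dependent form. It had 164, 235 and 280 normalized counts (lowest, median and highest of 8) in LSK cells, 283, 418 and 521 in CMP cells, 430, 553 and 745 in GMP cells, and 370, 431 and 534 in MEP cells. No LSK library reached the lowest of any other population. The log2 difference was -0.77 against CMP (SE 0.10, adjusted p = 1.1e-06), -1.24 against GMP (SE 0.10, adjusted p = 6e-11) and -0.92 against MEP (SE 0.10, adjusted p = 5e-08) in limma. H1f3 and H1f4, other replication-dependent linker histones named after their values were seen, differed by -0.97 and -0.96 against GMP, both called. H1f2 differed by -0.39 against GMP, also called.

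H1f0 (chr15:79028450-79030504, plus strand) ran the other way. It had 639, 851 and 1323 normalized counts in LSK cells, 409, 567 and 805 in CMP cells, 256, 351 and 726 in GMP cells, and 396, 606 and 676 in MEP cells. The highest LSK value was from Cxadr-ko mouse 1, and the LSK range overlapped with all the others. Its log2 difference was 0.69 against CMP (SE 0.16, adjusted p = 0.0016), 1.14 against GMP (adjusted p = 1.4e-06) and 0.70 against MEP (adjusted p = 0.0013) in limma. It was also called higher in CMP than in GMP, by 0.45 (adjusted p = 0.048), and lower in GMP than in MEP, at -0.44 (adjusted p = 0.0496). Those last calls were at the threshold and were lost in 14 and 16 of the 21 alternative settings, for instance without mouse 1 of both genotypes, where the differences were 0.32 (adjusted p = 0.232) and -0.28 (adjusted p = 0.299).

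The H2A genes moved together between gates. Of 11 tested, 10 were lower in LSK than in GMP, 10 lower than in CMP and 9 lower than in MEP, with medians of -0.77, -0.44 and -0.45. Hist1h2ap had 2044, 2584 and 3679 normalized counts in LSK cells, 2182, 3805 and 4422 in CMP cells, 2933, 4572 and 6161 in GMP cells, and 2700, 3594 and 4520 in MEP cells. The ranges overlapped, but within each mouse the LSK value was the lowest of the 4. The difference was -0.44 against CMP, -0.76 against GMP (SE 0.05, adjusted p = 7.7e-12, limma) and -0.45 against MEP. Hist1h2ao, of which most words are shared with Hist1h2ap and other copies, gave -0.45, -0.77 and -0.45, all called. H2ac4 gave -0.43, -0.73 and -0.39 and H2ac6 -0.46, -0.80 and -0.42, all called.

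H2B genes had a larger median difference. Of 15 tested, 14 were lower in LSK than in GMP (median -0.99), 11 lower than in CMP (median -0.66) and 13 lower than in MEP (median -0.78). H2bc8 (chr13:23571396-23572013, plus strand) had 114, 136 and 180 normalized counts in LSK cells, 152, 233 and 332 in CMP cells, 145, 302 and 430 in GMP cells, and 204, 254 and 286 in MEP cells. It differed by -0.74, -1.04 (SE 0.11, adjusted p = 1.4e-08) and -0.80 against CMP, GMP and MEP in limma. H2bc4, annotated with a polyadenylation signal and no stem-loop, differed by -0.33 against CMP, which was not called (adjusted p = 0.105, limma), and by -0.46 and -0.64 against GMP and MEP, which were.

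The largest H2B differences were in low genes. H2bc15 had a median of 26.7 normalized counts in LSK cells, 65.2 in CMP cells, 59.0 in GMP cells and 52.6 in MEP cells, and was lower in LSK than in CMP by a log2 difference of -1.25 (SE 0.16, adjusted p = 5.6e-07, limma). Hist1h2bp, with LSK values of 18.9 to 44.9, differed by -0.86, -1.19 and -1.11 against CMP, GMP and MEP, all called. H2bc12 had 3.55 to 14.4 in LSK and 14.8 to 47.4 in GMP, without overlap, and differed by -1.35 (SE 0.28, adjusted p = 0.0002, limma). Hist1h2br differed by -1.04 against CMP and H2bc13 by -1.04 against MEP, both called; log2 differences of such low genes are held down by the added 1. H2bc21 stood apart with a difference of -0.00 against GMP, in a 95% interval of -0.71 to 0.71. That value includes 1 far LSK library, Cxadr-ko mouse 4, with 7.19 normalized counts. The other LSK libraries had 73.3 to 117, and the GMP libraries 42.2 to 114.

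H3 and H4 genes were low in counts but moved the same way. All 10 tested H3 genes were lower in LSK than in GMP (median -0.89), with 3 called against CMP and 7 against MEP. H3c15 (chr3:96238108-96239127, minus strand) had 33.7, 57.1 and 77.5 normalized counts in LSK and 45.8, 94.5 and 160 in GMP, and differed by -0.71 (SE 0.17, adjusted p = 0.0013, limma), while the ranges overlapped. H3c7 differed by -0.83 against GMP, which was called, and by -0.37 and -0.30 against CMP and MEP, which were not (adjusted p = 0.213 and 0.291, limma). H3c2 had 2.47 to 10.3 in LSK and 5.56 to 24.2 in GMP, a log2 difference of -1.55 (SE 0.30, adjusted p = 9e-05, limma). Its counts are small, so the interval ran from -2.16 to -0.94.

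Of the 10 tested H4 genes, 8 were lower in LSK than in GMP (median -0.87), 3 lower than in CMP and 8 lower than in MEP. H4c8 (chr13:23531050-23531519, plus strand) had 34.5, 65.5 and 107 normalized counts in LSK cells, 48.0, 107 and 139 in CMP cells, 59.4, 130 and 180 in GMP cells, and 69.3, 107 and 150 in MEP cells. It differed by -0.49, -0.91 and -0.64 against CMP, GMP and MEP, all called. H4c4 differed by -0.29 against CMP (adjusted p = 0.053, limma, not called), and by -0.60 and -0.46 against GMP and MEP, both called. Hist1h4n differed by -1.25 and Hist1h4m by -1.23 against GMP, both called.

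CMP and GMP cells differed less. Of 53 members 15 were lower in CMP and 1, H1f0, was higher, with a median of -0.31; 21.1% of all genes were called, 9.6% as lower, with a median of 0.03. Among the called members H3c2 had the largest difference, -0.99 (SE 0.30, adjusted p = 0.016, limma), followed by Hist1h4m with -0.59 and H3c8 with -0.58. H3c8 lost its call in 11 of the alternatives, among them those without control mouse 3, -0.47 (adjusted p = 0.164). Without the mouse as a block 3 members were called. In the Cxadr-ko mice alone 7 of 53 were called, beside 7.84% of all genes tested there. In the control mice alone 5 of 52 were called, below the 14.2% of all genes tested there.

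Between CMP and MEP limma called 0 of 53 members, edgeR and DESeq2 also 0, and 3 had an unadjusted p under 0.05; 0.373% of all genes were called. The median was -0.13, beside 0.01 for all genes. For Hist1h2ap the 95% interval of the CMP minus MEP difference was -0.12 to 0.11, and for H1f5 -0.36 to 0.05. Between GMP and MEP 7 members were higher in GMP and 1, H1f0, was lower, with a median of 0.21; 22% of all genes were called, 10.3% as higher, with a median of -0.00. Hist1h4m was higher by 0.52, H2ac6 by 0.38 and H2ac4 by 0.34. Without control mouse 2 the calls numbered 5, and without the mouse as a block 1.

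Members were also described by what their transcript models hold. Of the 26 tested cluster genes with a stem-loop and no polyadenylation signal after it, 25 were lower in LSK than in GMP, with a median of -0.93. Of the 11 with a stem-loop and such a signal further on, 9 were lower, with a median of -0.68. Of 5 with a signal and no stem-loop 4 were lower (median -0.52), and of 9 with neither 9 were lower (median -0.86). The genes outside the clusters, H1f0 and H1f10, were at 1.14 and 0.00. The difference between these groups of genes was not tested.

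In 12 places an H2A and an H2B gene lie head to head, 175 to 305 bases apart, and share the stretch between them. Measured levels within such a pair could be far apart. Per kilobase Hist1h2ap averaged 7418 normalized counts and its neighbour Hist1h2br 6.89, and Hist1h2ao 6390 and Hist1h2bq 8.92. Of the 50-base words of Hist1h2br and Hist1h2bq, 99.8% and 100% occur in other genes. Their models hold 2212 and 2015 exon bases, against 482 for Hist1h2ap and 480 for Hist1h2ao. How far shared reads and model length made these gaps was not tested. The H2A gene was the higher per kilobase in 8 of the 12 pairs, and H2bc11, with 393 against 47.5 for H2ac11, was a case of the reverse. Of 10 pairs with both genes tested, the H2B gene lay further below 0 in the LSK minus GMP difference in 7, as in H2bc8 with -1.04 beside H2ac8 with -0.50. In the pair of H2ac20 and H2bc21 it was the reverse, with -0.78 and -0.00. The value of H2bc21 includes the low LSK library of Cxadr-ko mouse 4, with 7.19 normalized counts beside 73.3 to 117 in the other LSK libraries.

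The comparison of genotypes asked whether loss of Cxadr moved these genes. No member was called in any population. In LSK cells limma called 0 of 42 tested members, edgeR and DESeq2 also 0, and 2 had an unadjusted p under 0.05; 0.0433% of all genes were called, 0.0124% as higher and 0.0309% as lower, and 8.58% had such an unadjusted p. The median log2 fold change (Cxadr-ko over control) was 0.22, beside -0.00 for all genes. It was 0.11 without Cxadr-ko mouse 3, 0.13 without control mouse 1 and 0.11 over members with a mean of at least 50. The member total was 12523 ± 1885 in Cxadr-ko LSK cells and 11951 ± 742 in control LSK cells (SD, n = 4 each).

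The LSK members of lowest p were Hist1h4m and H2ac4. Hist1h4m, an H4 gene, had 44.0, 48.1, 63.2 and 46.2 normalized counts in Cxadr-ko LSK cells and 27.9, 35.0, 34.2 and 37.2 in control LSK cells. The groups did not overlap, and the log2 fold change was 0.56 (SE 0.22, 95% interval 0.09 to 1.04, adjusted p = 0.541, limma). H2ac4 had 1177, 1372, 1804 and 1325 in Cxadr-ko LSK cells and 819, 1536, 943 and 862 in control LSK cells. The groups overlapped through control mouse 2, and the fold change was 0.48 (SE 0.19, adjusted p = 0.544, limma). H4c8 had 50.5, 76.6, 107 and 92.5 against 34.5, 68.2, 62.7 and 53.2, a fold change of 0.56 (SE 0.28, adjusted p = 0.624, limma), with overlap.

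In CMP cells limma called 0 of 49 members, edgeR and DESeq2 also 0, and 1 had an unadjusted p under 0.05; 0.0254% of all genes were called and 7.27% had such a p. The median was -0.02, and -0.12 to 0.07 over the alternative settings. H1f5 had 429, 283, 408 and 284 normalized counts in Cxadr-ko CMP cells and 444, 496, 521 and 379 in control CMP cells. The groups overlapped and the log2 fold change was -0.41 (SE 0.17, adjusted p = 0.654, limma). H4c4 had 174, 116, 167 and 98.4 against 162, 171, 206 and 162, a fold change of -0.37 (SE 0.20, adjusted p = 0.710, limma). The member total was 15456 ± 3725 in Cxadr-ko and 17144 ± 1883 in control CMP cells (SD, n = 4 each).

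In GMP cells the count was 0 of 51 by limma, edgeR and DESeq2, with 0 at an unadjusted p under 0.05; 0.0192% of all genes were called and 5.66% had such a p. The median was 0.13, but 0.00 without Cxadr-ko mouse 3, -0.03 without control mouse 1, and 0.23 without control mouse 2 or control mouse 3. The total was 19617 ± 4384 in Cxadr-ko and 20307 ± 3379 in control GMP cells (SD, n = 4 each). H3c3 had the lowest p, with 11.3, 12.8, 5.13 and 7.03 in Cxadr-ko GMP cells and 13.9, 17.6, 14.3 and 17.4 in control GMP cells. The groups did not overlap, and the fold change was -0.81 (SE 0.47, adjusted p = 0.885, limma). H2bc12 gave 0.64 (SE 0.39, adjusted p = 0.885, limma).

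In MEP cells it was 0 of 52 by limma, edgeR and DESeq2, with 1 at an unadjusted p under 0.05; 0.0253% of all genes were called and 5.93% had such a p. The median was 0.03, and -0.09 to 0.13 over the alternative settings. The total was 15915 ± 1721 in Cxadr-ko and 16885 ± 1119 in control MEP cells (SD, n = 4 each). H2bc4 had 425, 428, 204 and 300 in Cxadr-ko MEP cells and 455, 391, 507 and 612 in control MEP cells. The groups overlapped and the fold change was -0.58 (SE 0.24, adjusted p = 0.824, limma). H4c14, on chromosome 3, gave 0.64 (SE 0.32, adjusted p = 0.843, limma).

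With the 4 populations of a mouse averaged, limma called 0 of 53 members, edgeR and DESeq2 also 0, and 0 had an unadjusted p under 0.05; 0.0217% of all genes were called and 7.93% had such a p. The median was 0.14, but -0.00 without control mouse 1, 0.07 without Cxadr-ko mouse 3 and 0.23 without control mouse 3. The 10 tested H3 genes had values of 0.07 to 0.39, with a median of 0.19, and none was called. Without control mouse 1, 5 of the 10 were above 0 and their median was 0.04. H2bc12 gave 0.46 (95% interval -0.15 to 1.06, adjusted p = 0.691, limma). With 95% intervals, H1f5 gave -0.10 (-0.37 to 0.17), Hist1h2ap -0.21 (-0.58 to 0.16) and H2bc8 0.12 (-0.24 to 0.47). Other abundant genes had wider intervals, such as -0.21 to 0.76 for H2ac4 and -1.03 to 0.16 for H2ac6. A difference between populations in the genotype effect was called by limma for 0 of 53 members, with 3 at an unadjusted p under 0.05; 0 of all genes were called, and 5.86% had such a p.

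Some H2A genes differed widely between mice. Hist1h2an (chr13:21786826-21787218, minus strand) averaged 200 normalized counts over the 4 populations in Cxadr-ko mouse 1, 668 in mouse 2, 1104 in mouse 3 and 784 in mouse 4. In control mice it averaged 164 in mouse 1, 1092 in mouse 2, 204 in mouse 3 and 195 in mouse 4. Thus 3 Cxadr-ko mice and 1 control mouse had 570 to 1580 in every library, and the other 4 mice 110 to 258, with no library in between.

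Beside this spread between mice, the log2 fold change of Hist1h2an over the populations was 1.03 with a 95% interval of -0.35 to 2.41 (adjusted p = 0.694, limma). Within a mouse it still followed the gates, and was lower in LSK than in GMP, at -0.81 (SE 0.08, adjusted p = 6e-09, limma). Between mice 92.6% of the sum of squares of its log2 values was found and between populations 6.21%. Such shares are not adjusted for the number of groups. With 8 mice and 4 populations, the mouse share would be the larger where neither matters. A mouse share above a population share therefore does not by itself show a larger difference between mice. Of 11924 genes with a mean of at least 50, 14 had a mouse share at or above that of Hist1h2an.

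H2ac6 showed the other order of mice. It averaged 1552, 595, 891 and 685 in Cxadr-ko mice 1 to 4 and 1236, 849, 1540 and 1221 in control mice 1 to 4. The 4 mice with high Hist1h2an had the 4 lowest means of H2ac6. Its mouse share was 70.7% and its population share 24.4%. H2ac8 averaged 202, 146, 407 and 292 in Cxadr-ko mice and 334, 218, 350 and 498 in control mice, with a mouse share of 83.6%. H2ac4 averaged 1465, 1518, 2468 and 1655 in Cxadr-ko mice and 1210, 2331, 1394 and 1115 in control mice, and its mouse share was 63.4%. H2ac8 was singled out after its values were seen.

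**Figure D3:**
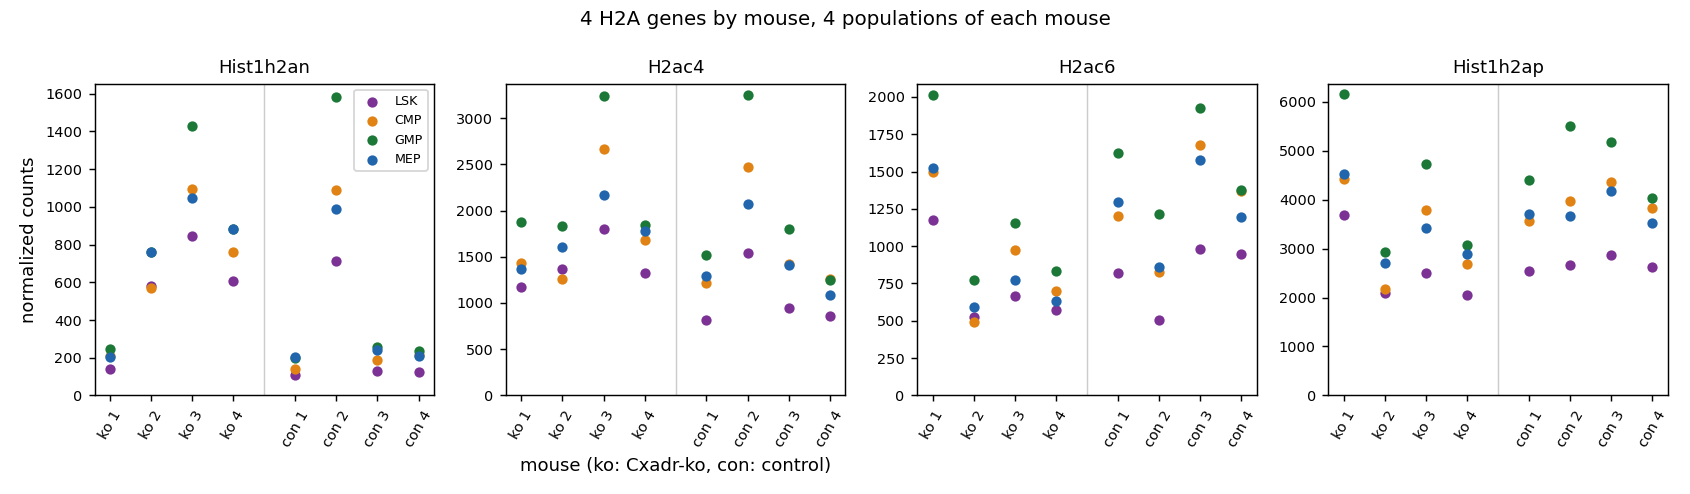
Normalized counts (vertical axes, linear and starting at 0) of Hist1h2an, H2ac4, H2ac6 and Hist1h2ap in each mouse, Cxadr-ko mice left of control mice, with 1 point for each sorted population. Hist1h2an lies at 570 to 1580 in Cxadr-ko mice 2, 3 and 4 and control mouse 2, and at 110 to 258 in the others.

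Over the 29 members with a mean of at least 50, the median share was 34.4% between mice and 42.2% between populations, beside 23.4% and 30.0% for all 11924 genes. H1f5 had 12.2% between mice and 77.6% between populations, and Hist1h2ap 49.8% and 45.0%. H2A genes share much of their sequence: 85.8% of the 50-base words of Hist1h2an occur in other genes, so which copy its reads came from is uncertain.

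**Figure D4:**
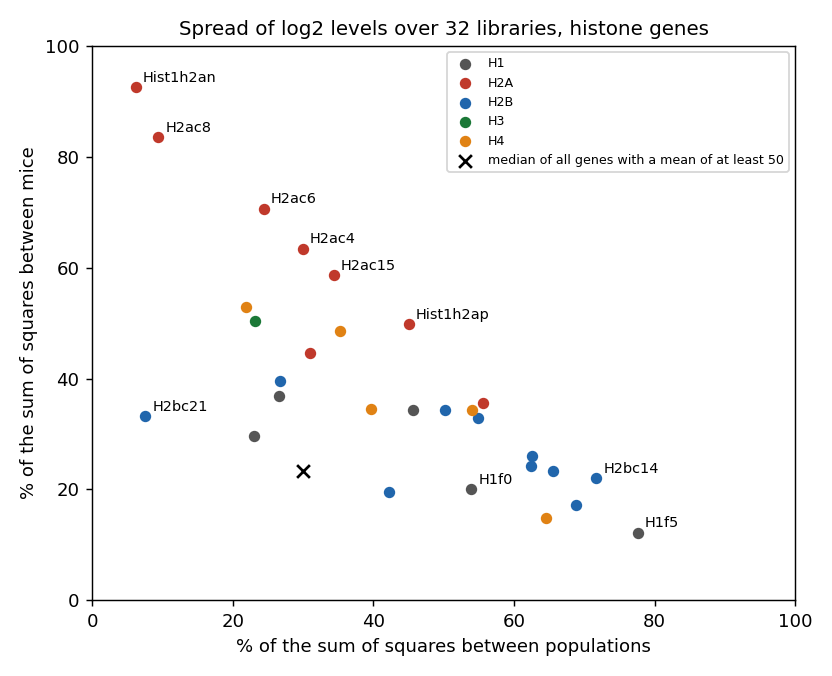
Share of the sum of squares of log2(normalized count + 1) over 32 libraries found between the 4 populations (horizontal axis, %) and between the 8 mice (vertical axis, %), for the 29 histone genes with a mean of at least 50; the cross is the median of 11924 genes. Hist1h2an, H2ac8, H2ac6 and H2ac4 lie at mouse shares of 92.6%, 83.6%, 70.7% and 63.4%, while H1f5 lies at 12.2%. The shares are not adjusted for the unequal numbers of mice and populations.

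Genes that act with the histones were taken as lists. Of 44 DNA replication genes 34 were lower in LSK than in CMP, 21 lower and 2 higher than in GMP, and 26 lower and 2 higher than in MEP, with medians of -0.33, -0.16 and -0.23. Of all genes 14.9%, 22.1% and 16.2% were called lower in these 3 pairs, 16.3%, 27.4% and 20.3% higher, and 31.3%, 49.5% and 36.4% in either direction, so the 23 of 44 called against GMP lie near the share of all genes. Rfc4, a clamp loader subunit, Tyms, which makes thymidylate, and Pcna, the sliding clamp, had the lowest p against CMP; Pcna differed by -0.36, and by -0.14 against GMP, both called. Between CMP and GMP, where 15 histone genes were lower in CMP, 19 of the 44 replication genes were higher in CMP and 0 lower, with a median of 0.18, beside 11.5% of all genes called higher. Mcm4, a subunit of the replicative helicase, was higher in CMP than in GMP by 0.40 (SE 0.06, adjusted p = 8.7e-06, limma). Chaf1b, a subunit of the histone chaperone CAF-1, was higher in LSK than in GMP by 0.53.

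Of 28 mitosis genes 14 were lower in LSK than in CMP, 16 lower and 1 higher than in GMP, and 12 lower than in MEP, with medians of -0.26, -0.30 and -0.18, beside 14.9%, 22.1% and 16.2% of all genes called lower. Cdk1, the mitotic kinase, had 537, 721 and 910 normalized counts in LSK and 908, 1177 and 1481 in GMP, and differed by -0.74 (adjusted p = 1.5e-11, limma). Of 13 genes that restrain the cell cycle, 6 were higher in LSK than in CMP, 8 higher and 1 lower than in GMP, and 6 higher than in MEP, beside 16.3%, 27.4% and 20.3% of all genes called higher. Cdkn1a, the inhibitor p21, was higher in LSK than in GMP by 1.24, and Tob1 and Btg2, antiproliferative proteins, by 1.13 and 1.20.

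**Figure D5:**
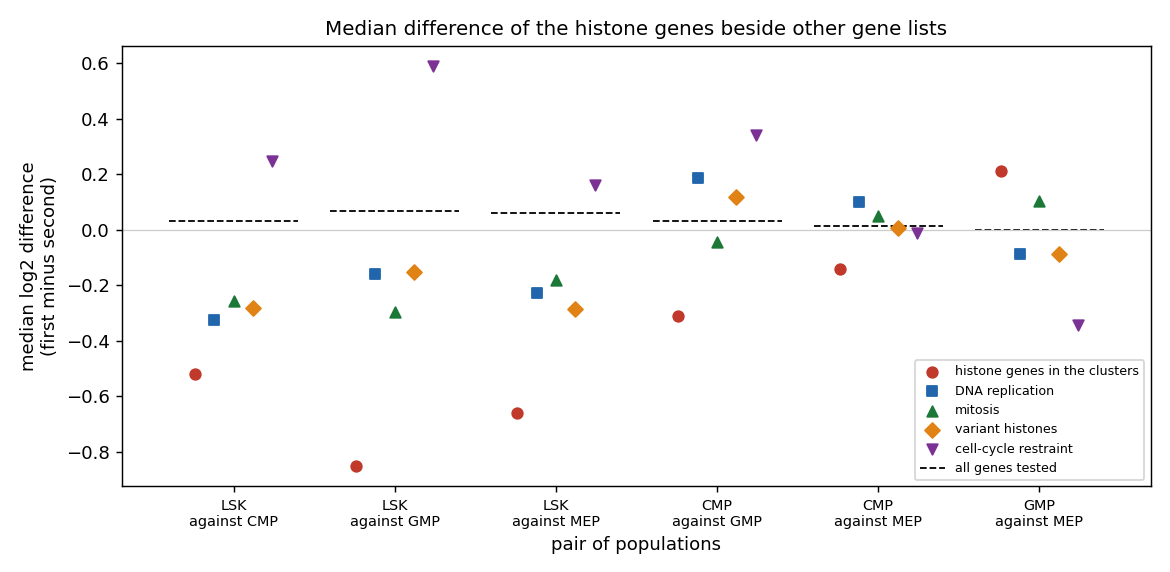
Median log2 difference, first population minus second (vertical axis), of the 51 tested histone genes inside the clusters and of 4 other gene lists for the 6 pairs of populations, with the median of all genes tested as a dashed line. Histone genes lie lowest in the 3 pairs with LSK; DNA replication genes lie below 0 there and above 0 for CMP against GMP, where histone genes lie below 0.

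Variant histones, most of which are made outside S phase and polyadenylated, were a list of 11, with H1f0 and H1f10 among them. H2ax on this list is also known to give a stem-loop mRNA. Of these 6 were lower and 2 higher in LSK than in CMP, 6 lower and 2 higher than in GMP, and 7 lower and 1 higher than in MEP, beside 31.3%, 49.5% and 36.4% of all genes called in either direction. H2aj, an H2A variant, had 1730, 1838 and 2075 normalized counts in LSK and 2771, 3083 and 3357 in GMP, without overlap, and differed by -0.72 (adjusted p = 1.8e-13, limma). H2az1, the gene of H2A.Z.1, differed by -0.35, -0.37 and -0.39 against CMP, GMP and MEP, all called.

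Of 19 genes that regulate, process or degrade histone mRNA, 4 were lower and 1 higher in LSK than in CMP, 5 lower and 5 higher than in GMP, and 3 lower and 3 higher than in MEP. The 5, 10 and 6 called of 19 lie near the 31.3%, 49.5% and 36.4% of all genes called. Slbp, which binds the stem-loop, had 3513 to 4053 normalized counts in LSK and 2640 to 4473 in GMP, and its difference from GMP was -0.00 (adjusted p = 0.96, limma). Tut7, a uridylyltransferase that acts on RNA ends, had 2018, 2410 and 2757 in LSK and 783, 982 and 1269 in GMP. It was higher in LSK than in CMP, GMP and MEP by 0.72, 1.27 and 0.81, all called, without overlap between LSK and GMP. Srrt, a partner of the cap-binding complex, was lower, at -0.23, -0.50 and -0.28, all called.

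Of 22 histone chaperones 9 were lower in LSK than in CMP, 5 lower and 6 higher than in GMP, and 5 lower and 4 higher than in MEP. Against CMP 14.9% of all genes were called lower and 31.3% in either direction. The 11 called against GMP and 9 against MEP lie near the 49.5% and 36.4% of all genes called. Nasp, which binds free H3 and H4, was lower, at -0.53, -0.52 and -0.43, and Asf1b, an H3-H4 chaperone of dividing cells, at -0.45, -0.45 and -0.46, all called. None of the genes on these lists was called between genotypes.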

How the data were processed

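RNA-seq of 32 libraries, 1 for each of 4 populations of 8 mice, was used. The values are a signal: the authors deposited gene counts divided by 1 size factor per library, as the values themselves show. The submitters' processing notes list STAR, DESeq2, GRCm38 and mm10. For the counting program, annotation release and strand setting nothing is given in the sources used here. Divided by the value of 1 read in their library, 100% of the 765992 values above 0 came out within 0.001 of a whole read, at totals of 8313300 to 13641248 reads per library. Per the labels, mouse 1 of either genotype has an identifier unlike the others, so a fit without both was among the alternatives.

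Values were taken as log2(normalized count + 1) and tested with limma 3.58.1 (trend, two-sided, R 4.3.3) over all genes with at least 10 in at least 4 fitted libraries, with Benjamini-Hochberg adjustment over all genes and calls at 0.05. Genotypes were compared within each population and on the mean over populations of a mouse, and populations in 1 fit of all 32 with mouse as block, since per the labels the 4 gates came from the same animal. edgeR 4.0.16 (quasi-likelihood) and DESeq2 1.42.0 on the recovered whole reads, other scalings, pseudocounts, filters and left-out mice were alternatives. The log2 scale with an added 1 understates differences of low genes. Tables were handled with Python 3.11.15, pandas 2.3.3 and numpy 2.4.6. Stem-loops were read from GENCODE M21, whose coordinates equalled the table's for 68 of 68 members, and promoters from RefSeq.

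Members and lists were chosen with earlier results of these data known. Named members were, per class, the 2 of highest mean level, the 2 of lowest p in each genotype comparison and, per pair of populations, the 3 called of largest difference in each direction; per list, up to 3 called of lowest p. Other members named, such as H1f2, H1f3, H1f4, H2ac8, H2ac15, H2bc11, H2bc14, H2bc21 and Hist1h2bq, were chosen after their values were seen.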

Additional observations from a re-analysis of the deposited data

Results flagged for a closer look

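In groups of 4 mice, 11 of 152 groups held a library far from the other 3. Chance alone flags about 1 in 20 independent groups. These groups are not independent, since the gates share mice and the totals hold their own members, so the 2 rates cannot be compared. The largest set is Hist1h2an, for which control mouse 2 lay far above the other control mice in each gate: 712 normalized counts in LSK (the others 110 to 129), 1088 in CMP (143 to 213), 1580 in GMP (201 to 258) and 987 in MEP (203 to 239). H2ac4 was high in the same mouse in CMP, at 2469 (others 1215 to 1427), and in Cxadr-ko mouse 3 in GMP, at 3234 (others 1829 to 1881). H4c4 was high in control mouse 2 in GMP, at 283 (others 172 to 185), and in Cxadr-ko mouse 3 in MEP, at 219 (others 158 to 166). The H4 total was high in Cxadr-ko mouse 3 in GMP, at 925 (others 680 to 720). The H2A total was low in control mouse 1 in LSK, at 8123 (others 9168 to 9252). H1f0 was high in Cxadr-ko mouse 1 in LSK, at 1323 (others 693 to 794).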

How the results depend on the processing

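No member was called between genotypes under any of the 20 settings tried, with the mouse number as a block included (0 in each population and in the mean). The deviations of the 2 mice numbered 1 correlated at 0.51, 0.32, 0.31 and 0.14 in LSK, CMP, GMP and MEP. Control mouse 1 was the best match of Cxadr-ko mouse 1 in each gate. For the other numbers the correlations were -0.08 to 0.10, so same-numbered mice did not pair beyond mouse 1. Between populations, members called fell without the mouse block to 19 for LSK against CMP (31 with it), 3 for CMP against GMP (16) and 1 for GMP against MEP (8). In the 4 Cxadr-ko mice alone, with 53 members tested, they numbered 9 for LSK against CMP and 30 for LSK against GMP (48 in all mice). They numbered 13 for LSK against MEP (42 in all mice), 7 for CMP against GMP and 3 for GMP against MEP. In the 4 control mice alone they numbered 5 for CMP against GMP. Between CMP and GMP 7.84% and 14.2% of all genes were called in the Cxadr-ko and the control mice alone. Between GMP and MEP 9.01% were called in the Cxadr-ko mice alone. Quantile normalization gave 47 members for LSK against CMP. On the whole reads, edgeR and DESeq2 called 34 and 32 for LSK against CMP, 48 and 48 for LSK against GMP, 43 and 42 for LSK against MEP, 15 and 16 for CMP against GMP, 0 and 0 for CMP against MEP, and 7 and 7 for GMP against MEP. A mean of at least 50 gave 28 of 29 tested for LSK against GMP, where fewer genes were tested. The cause of the other shifts was not tested. Leaving out 1 mouse at a time gave 24 to 32 for LSK against CMP, 45 to 49 for LSK against GMP, 35 to 41 for LSK against MEP, 11 to 16 for CMP against GMP and 5 to 11 for GMP against MEP, the 5 without control mouse 2. Without mouse 1 of both genotypes the calls were 26, 44, 38, 14 and 8 in the same pairs.

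Quantile normalization moved the median of all genes by over 0.1: to -0.07 in LSK against CMP (0.03 with the authors' size factors), -0.08 in LSK against GMP (0.07) and -0.05 in LSK against MEP (0.06). The split of all calls, higher and lower, was then 2662 and 3866 in place of 3014 and 2761, 4284 and 5501 in place of 5060 and 4092, and 3104 and 4091 in place of 3746 and 2988. Over the settings the members' median minus that of all genes ran from -0.66 to -0.39 in LSK against CMP, -1.04 to -0.77 in LSK against GMP and -0.80 to -0.56 in LSK against MEP. Of 411 alternative values for 20 named results between populations, 344 kept call and direction, 67 lost the call and 0 reversed; 30 of the 67 were H1f0 between CMP or MEP and GMP. Of 195 for genotype, 195 stayed uncalled. Low counts kept 15 members from being tested at all.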
